A study of Homo sapiens with 8 samples.

Results

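The aryl hydrocarbon receptor pathway was read through 7 genes: the receptor AHR, its repressor AHRR, its partner ARNT, and the response genes CYP1A1, CYP1A2, CYP1B1 and TIPARP. They were taken as the genes by which a hydrocarbon response to either gas mixture would be looked for. Of the 7, 6 had a probe set of their own among 18377 such genes on the array. The only probe set listed for AHRR is also listed for PDCD6, so no level of AHRR is given.

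AHR waits in the cytoplasm with chaperones until a planar aromatic ligand, such as a polycyclic hydrocarbon of smoke or soot, binds it. It then enters the nucleus, pairs with ARNT and binds GCGTG sites near its targets, of which CYP1A1 is the classic readout in lung and liver. CYP1A1, CYP1A2 and CYP1B1 oxidise the ligand, and AHRR and TIPARP feed back to dampen the receptor.

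All arrays were of A549 cells, a line from a single human lung tumour with no added transgene, held at an air-liquid interface for an exposure of 4 hours and collected 9 hours later. In the PCA pollutants group the cells received the urban mixture after a day of sunlight (photochemically altered, or aged), and the evening control received humidified incubator air over the same hours. In the primary pollutants group they received the fresh urban mixture in the morning, and the morning control received humidified incubator air at that time. Each group held 2 arrays, 8 in all, and each mixture was given in 1 run, so mixture, time of day and run cannot be told apart. The study's methods call the arrays of a group biological duplicates, and since both came from the same run, p-values measure the spread within a run only.

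Array medians lay between 6.93 and 7.03 on the log2 scale. Over all probe sets, arrays of a group correlated at r = 0.994 to 0.997 and arrays of different groups at r = 0.988 to 0.996. All 8 A549 epithelial markers, KRT8 and KRT18 among them, reached a signal of 100 on every array. Of 8 markers of alveolar type II cells, 6, SFTPC and NKX2-1 included, reached that signal on no array. All 4 endothelial markers likewise reached it on no array. Of 4 immune cell markers, CD68 reached it on all 8 arrays and CD14 on 7, while CD3E reached it on none and PTPRC, which defines leukocytes, stayed under a signal of 30. Of 5 fibroblast markers, COL1A1 and COL3A1 reached it on all 8 arrays and COL1A2 on 7, and PDGFRA and PDGFRB on none. The part of these markers in the results was not tested. CDH1, the E-cadherin of epithelial junctions, fell by 1.11 on the log2 scale in PCA-exposed cells (adjusted p = 0.000665), and its part in any result here was not tested. In bulk RNA, fewer cells that express a gene and less of its RNA per cell cannot be told apart. The study reported greater cell death, read from released lactate dehydrogenase, after the PCA pollutants than after the primary pollutants. The part of cell death in the results here was not tested.

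The promoters of the classic target and of the feedback gene are shown because they carry the letters that the receptor pair is known to bind. The sequences, from RefSeq on GRCh38.p14, run 5′ to 3′ on the gene's strand from 250 bases before to 50 bases after the start of transcription. Capitals mark GCGTG, or CACGC where it lies on the other strand. The CYP1A1 window is chr15:74725479-74725778, minus strand, and the TIPARP window is chr3:156674340-156674639, plus strand, the first of 3 entries for that gene.
CYP1A1: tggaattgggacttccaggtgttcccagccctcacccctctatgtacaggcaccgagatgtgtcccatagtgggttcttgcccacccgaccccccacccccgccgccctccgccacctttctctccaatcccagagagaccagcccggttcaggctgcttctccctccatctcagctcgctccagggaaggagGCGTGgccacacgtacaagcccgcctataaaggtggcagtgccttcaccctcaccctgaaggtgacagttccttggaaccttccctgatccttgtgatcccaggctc
TIPARP: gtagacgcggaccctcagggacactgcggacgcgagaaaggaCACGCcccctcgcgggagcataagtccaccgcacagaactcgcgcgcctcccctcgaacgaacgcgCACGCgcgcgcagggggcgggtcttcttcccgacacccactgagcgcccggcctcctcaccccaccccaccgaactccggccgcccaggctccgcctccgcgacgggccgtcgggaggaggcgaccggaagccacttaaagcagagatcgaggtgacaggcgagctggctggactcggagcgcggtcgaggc
The CYP1A1 match began at base -57 from the start, and the TIPARP matches at -208 and -142 in the window shown. The remaining TIPARP windows, chr3:156674676-156674975 and chr3:156676414-156676713, held no match. Matches also stood at base 37 of AHR, at -30 of the first AHRR entry and at -247 and -42 of the second. The single ARNT and CYP1A2 windows held none. Of the 7 genes 6 had an entry, and CYP1B1, which had none, was not searched. The motif is common: 12832 of 35116 promoters of this length, or 36.5%, held GCGTG on either strand. The longer TNGCGTG was in 5.51% of them and, among the 6 genes with an entry, only in AHRR, at -32. Sequence further upstream than these windows was not searched. GCGTG overlaps the core that hypoxia-inducible factors bind with the same partner, and a match of letters is a description and not a site in use.

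The first question was whether either mixture raised the receptor's classic targets. On the values as deposited, CYP1A1 did not pass the test in either direction with either mixture, and neither did CYP1A2. No member was called in limma, where a call was an adjusted p under 0.05 with at least a 1.5-fold change. That was 0 of 6 with the PCA pollutants and 0 of 6 with the primary pollutants. Over all genes tested, 3.53% were called with the PCA pollutants (617 of 17470) and 0% with the primary pollutants (0 of 17381). At an unadjusted p under 0.05, 3 members stood with the PCA pollutants (CYP1B1, TIPARP and ARNT) and none with the primary pollutants.

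CYP1A1, the enzyme that activates benzo[a]pyrene, had log2 signals of 5.08 and 5.19 in PCA-exposed cells, against 4.96 and 5.49 in the evening control. It had 5.10 and 4.94 in cells given the primary pollutants, against 5.36 and 5.15 in the morning control. The PCA values lay between the 2 control values, and both primary values lay below both of theirs. These signals were close to the minimum of 30 (4.91 on the log2 scale) that a probe set had to reach on 1 array to be tested. The PCA difference was -0.09 (95% interval -0.48 to 0.31, adjusted p = 0.733). So near that minimum, the interval describes the probe signal and sets no limit on a change in CYP1A1 RNA. The direction of the difference rested on the evening control array of 5.49, replicate 2, without which it was 0.18. The primary difference was -0.23 (interval -0.63 to 0.16, adjusted p = 0.751). Intervals come from the same limma fit and cover the spread between arrays only.

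CYP1A2, a relative best known from liver and from caffeine breakdown, had signals of 6.89 and 6.75 with the PCA pollutants, against 6.59 and 6.67 in the evening control. With the primary pollutants it had 6.67 and 6.74, against 6.70 and 6.61 in the morning control. The PCA arrays lay above their controls and the primary arrays overlapped theirs. The PCA difference of 0.19 (interval -0.0029 to 0.38, at most 1.30-fold) had an adjusted p of 0.139, and the primary difference of 0.05 (at most 1.18-fold) one of 0.910. All CYP1A2 signals lay under the lowest array median of 6.93. The bounds therefore describe the probe signal, and whether they hold for CYP1A2 RNA was not tested. After scaling to 64 ribosomal protein genes, which moved the median of all genes to 0.12, the PCA difference of CYP1A2 was 0.31 with an adjusted p of 0.0342, still short of 1.5-fold. CYP1A1 and CYP1A2 are close in sequence, and whether their probes read each other was not tested.

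CYP1B1, the extrahepatic member of the family that also hydroxylates estradiol, was the enzyme that moved furthest, and it moved down. It had signals of 8.83 and 8.67 in PCA-exposed cells, against 9.23 and 9.13 in the evening control. The primary arrays read 9.22 and 9.20, against 9.17 and 9.06 in the morning control. The PCA arrays were the lowest pair of the 8 and lay apart from every other array. The means were 8.75 ± 0.11 with the PCA pollutants and 9.18 ± 0.07 in the evening control (SD, n = 2 each). The difference of -0.43 (SE 0.09, 95% interval -0.63 to -0.23) was 1.35-fold and short of the 1.5-fold limit, with a limma adjusted p of 0.0151. The primary difference was 0.10 (SE 0.09, interval -0.10 to 0.30, adjusted p = 0.806).

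TIPARP, a PARP enzyme that attaches ADP-ribose to AHR and shuts it down, was the member with the largest positive difference for both mixtures. It had 9.38 and 9.27 in PCA-exposed cells, against 8.90 and 9.06 in the evening control. It had 9.24 and 9.20 with the primary pollutants, against 9.04 and 9.10 in the morning control. Both exposed groups lay wholly above their own controls. The PCA difference was 0.35 (SE 0.08, interval 0.15 to 0.54), or 1.27-fold with bounds of 1.11 and 1.45, and its adjusted p was 0.0283. The primary difference was 0.15 (SE 0.08, interval -0.04 to 0.35, 1.11-fold), with an adjusted p of 0.656.

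**Figure D1:**
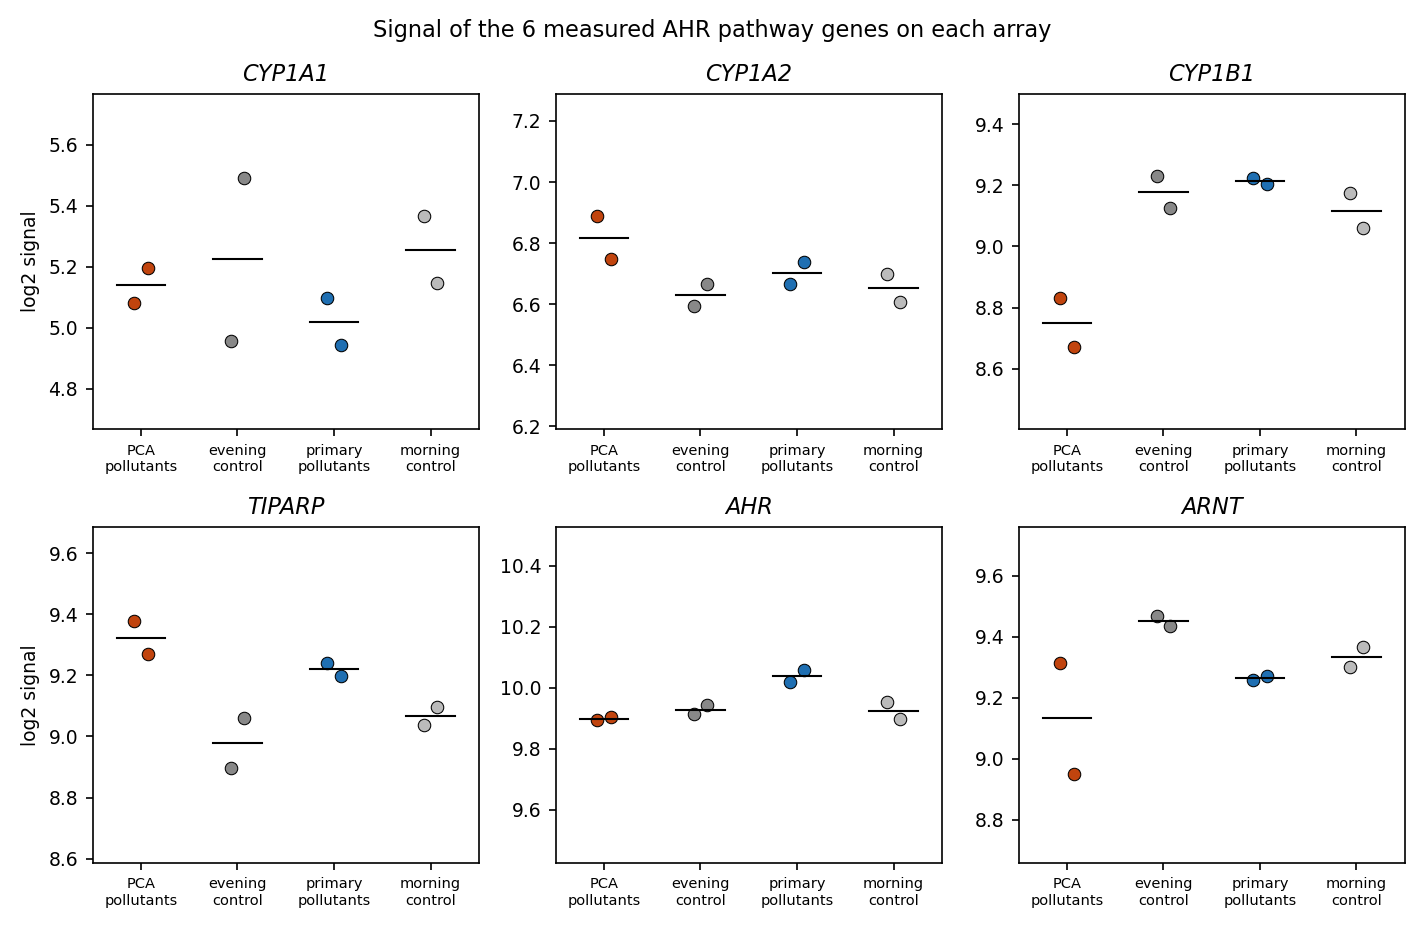
Log2 signal of the 6 members (y axis, a panel and scale per gene) on each of the 8 arrays, with groups left to right as PCA pollutants, evening control, primary pollutants and morning control. Points are arrays and bars are group means. CYP1B1 sits lowest on both PCA arrays, at 8.83 and 8.67, and TIPARP lies above its controls with both mixtures.

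By the adjusted p alone, with no fold limit, 2 of 6 members passed with the PCA pollutants: TIPARP upward and CYP1B1 downward. Over all genes, 5.72% passed upward and 14.1% downward by that rule, and 1 member of 6 in each direction cannot be set apart from those shares. Genes further from 0 than CYP1B1 made up 10.1% of those tested, and 17.4% were further than TIPARP. Neither passed when some arrays were left out. CYP1B1 had adjusted p-values of 0.0897 and 0.0577 without evening control replicates 1 and 2, and 0.0681 without PCA replicate 2. TIPARP stayed under 0.05 when either primary array was left out (0.0326), and without any other array its adjusted p was 0.0525 to 0.155. No member passed in the primary comparison by this rule.

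**Figure D2:**
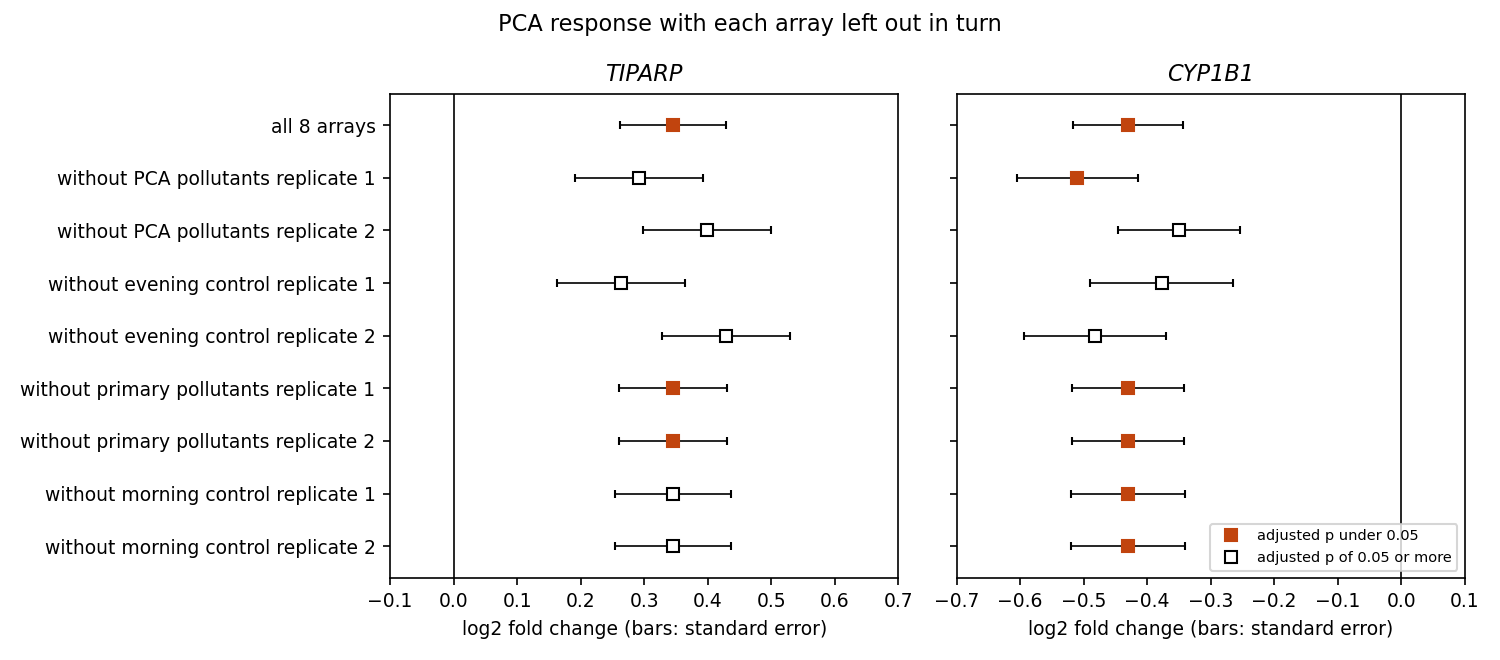
Log2 difference between the PCA pollutants and the evening control (x axis, bars 1 SE) for TIPARP (left) and CYP1B1 (right), with all 8 arrays and without each array in turn (rows). Filled squares mark an adjusted p under 0.05 and open squares the rest. TIPARP stayed positive and CYP1B1 negative throughout, while TIPARP was filled in 3 of its rows, those with all arrays or without a primary array.

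AHR itself had near-equal signals everywhere. It had 9.89 and 9.90 with the PCA pollutants, against 9.91 and 9.94 in the evening control, and 10.02 and 10.06 with the primary pollutants, against 9.95 and 9.90 in the morning control. The PCA arrays lay just under their controls and the primary arrays just over theirs. The differences were -0.03 (interval -0.18 to 0.13, adjusted p = 0.771) with the PCA pollutants and 0.11 (interval -0.04 to 0.27, adjusted p = 0.685) with the primary pollutants. The PCA difference turned positive, to 0.07, after quantile normalization and, to 0.10, after the ribosomal scaling.

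ARNT, the partner that AHR shares with the hypoxia-inducible factors, had 9.31 and 8.95 in PCA-exposed cells, against 9.47 and 9.43 in the evening control. It had 9.26 and 9.27 with the primary pollutants, against 9.30 and 9.37 in the morning control. Exposed arrays lay below their controls for both mixtures, and the PCA pair was the most spread of the 4. The PCA difference of -0.32 (SE 0.12, interval -0.59 to -0.05) had an adjusted p of 0.0861. It was -0.14 (adjusted p = 0.318) without PCA replicate 2 and -0.50 (adjusted p = 0.0215) without PCA replicate 1. The primary difference was -0.07 (adjusted p = 0.912).

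Arrays of exposed and control cells that do not overlap are common in pairs of 2. With the PCA pollutants, TIPARP and CYP1A2 lay wholly above and CYP1B1, ARNT and AHR wholly below their controls, as did 31.7% and 36.6% of all genes. With the primary pollutants TIPARP, CYP1B1 and AHR lay above and ARNT and CYP1A1 below, as did 17% and 21.7% of all genes. The members' median difference was -0.06 with the PCA pollutants and 0.07 with the primary pollutants, beside all-gene medians of -0.00170 and -0.00725.

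**Figure D3:**
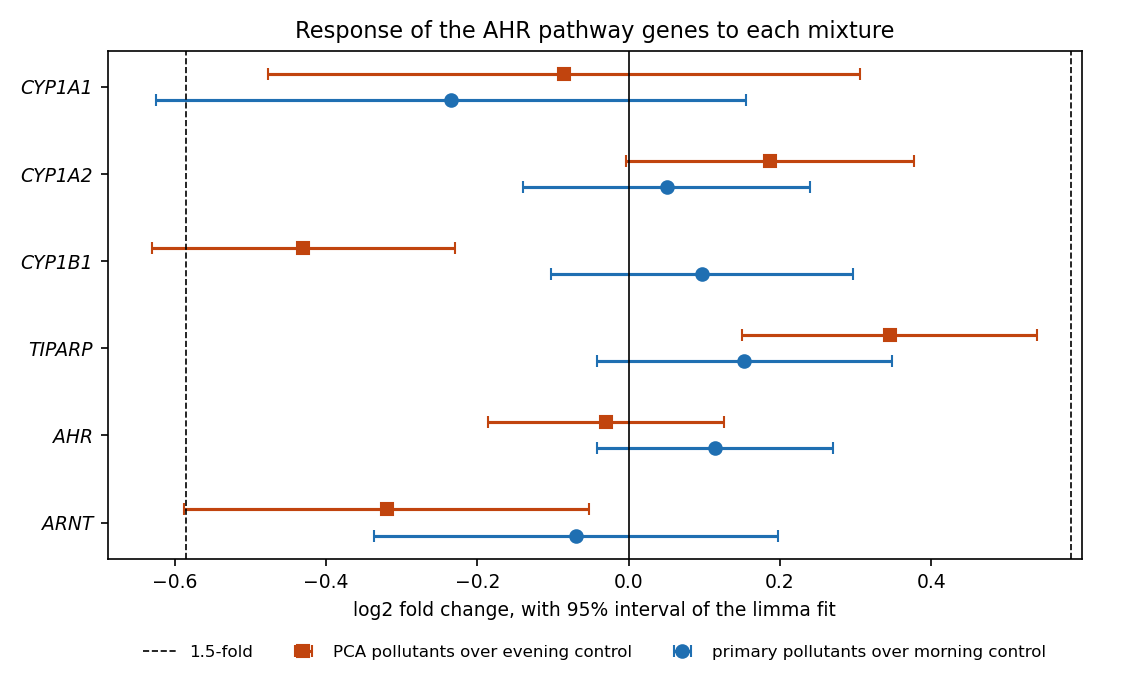
Log2 difference from the time-matched control (x axis) with its 95% interval for each of the 6 members, with the PCA pollutants above the primary pollutants for each gene, and lines at the 1.5-fold limit either way. No estimate reaches a line, and the largest are -0.43 for CYP1B1 and 0.35 for TIPARP, both with the PCA pollutants.

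The responses to the mixtures were then set against each other. The PCA response minus the primary response was -0.53 for CYP1B1 (SE 0.12, interval -0.81 to -0.24), with an unadjusted p of 0.00284 in limma that became 0.102 on adjustment. The same difference was 0.19 for TIPARP (adjusted p = 0.445), -0.25 for ARNT (0.465), -0.14 for AHR (0.471), 0.14 for CYP1A2 (0.577) and 0.15 for CYP1A1 (0.789). No member was called, and 0.439% of all genes were, a share that was unsteady: over all probe sets the 117 calls became 0 to 9 without 1 array and 2 with a replicate block. None of the 6 differences passed the test, and the intervals of CYP1B1, CYP1A1 (-0.40 to 0.70) and ARNT (-0.63 to 0.13) all reached past 1.5-fold.

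Averaging both responses gave each gene a smaller error. TIPARP then stood at 0.25 above both controls (SE 0.06, interval 0.11 to 0.39, 1.19-fold, adjusted p = 0.0343), below the fold limit. CYP1A2 was at 0.12 (adjusted p = 0.197), or 0.23 (adjusted p = 0.0318) after the ribosomal scaling. CYP1A1 was at -0.16 (interval -0.44 to 0.12, adjusted p = 0.377). None of the 6 members was called, beside 0.57% of all genes. TIPARP alone passed the adjusted p upward, as did 3.56% of all genes. It still passed without primary replicate 2 (0.0442) and missed the threshold without any other array, at 0.0539 to 0.118.

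The 2 groups that no pollutant reached differed little. The evening control minus the morning control lay between -0.09 for TIPARP and 0.12 for ARNT, no member had an adjusted p under 0.999, and 0% of all genes were called. CYP1B1 averaged 9.18 ± 0.07 in the evening control and 9.12 ± 0.08 in the morning control (SD, n = 2 each).

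Around the members, 8 lists of related genes were counted in the PCA comparison. The lists were chosen with earlier results of these arrays known, so their counts are descriptions. Over all genes in that comparison, 0.876% were called higher and 2.66% lower, and 50.3% had a difference below 0. With the primary pollutants no gene of any list was called, and list medians lay between -0.08 and 0.11.

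Among 16 tested genes of the receptor complex and its coregulators, none was called higher and 2 were called lower with the PCA pollutants. Over all genes 2.66% were called lower, and the list median was -0.16. NRIP1, a corepressor of nuclear receptors, fell by 0.73 on the log2 scale (adjusted p = 0.00168). NCOA2, a coactivator that AHR and steroid receptors share, fell by 0.59 (adjusted p = 0.00720). The NCOA2 call was lost without evening control replicate 2 or PCA replicate 2. NCOA1, its close relative, was at -0.51 (adjusted p = 0.00474) and the promoter factor SP1 at -0.35, and neither reached 1.5-fold.

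Among 17 tested genes known as other AHR targets, 1 was called higher and 1 lower. EREG, which encodes the EGFR ligand epiregulin, rose by 1.501 on the log2 scale (SE 0.10, adjusted p = 0.000665), against 0.19 with the primary pollutants (adjusted p = 0.651). ABCG2, a xenobiotic efflux pump, fell by 0.65 (adjusted p = 0.00405). The remaining 15 were not called. NFE2L2, the master factor of the antioxidant response, was at -0.41 (adjusted p = 0.00924) without reaching 1.5-fold. By the adjusted p alone, 6 of the 17 passed downward and 1 upward with the PCA pollutants, beside 14.1% and 5.72% of all genes. The list median was -0.19.

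The enzymes that pass electrons to P450 proteins or take up their epoxide products had negative differences in all 6 members with the PCA pollutants, with a median of -0.35, and 2 were called, beside 50.3% negative and 2.66% called lower over all genes. EPHX2, the soluble epoxide hydrolase, fell by 0.93 (adjusted p = 0.00253), and CYB5A, cytochrome b5, fell by 0.63 (adjusted p = 0.00254). POR, the reductase that every microsomal P450 depends on, was at -0.36 (adjusted p = 0.0136), and EPHX1, the microsomal epoxide hydrolase that follows CYP1A1 in benzo[a]pyrene activation, at -0.34 (adjusted p = 0.0201). Neither of those 2 reached 1.5-fold. With the primary pollutants POR and EPHX1 read 0.11 and 0.17, while EPHX2 and CYB5A read -0.40 and -0.17. The list median there was -0.06, and no gene of the list was called. Of 12 tested P450 genes of families 2 and 3, none was called. CYP2S1, an AHR-responsive P450, was at -0.32 and CYP2U1 at -0.35.

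Of 15 tested genes of TIPARP's own PARP family, none was called higher and 2 were called lower with the PCA pollutants. Over all genes those shares were 0.876% and 2.66%. By the adjusted p alone, 1 gene passed upward and 5 downward, beside 5.72% and 14.1% of all genes. The upward gene was PARP10, at 0.27 (adjusted p = 0.0287). PARP9 fell by 1.12 (adjusted p = 0.00127) and PARP14 by 0.88 (adjusted p = 0.00418). Both are known as interferon-induced members of the family. The list median was -0.19, and TNKS, a tankyrase that acts on telomeres and axin, was at -0.45 (adjusted p = 0.00671) without reaching 1.5-fold.

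The other bHLH-PAS factors and the hypoxia target genes gave 1 call. None of the 13 other bHLH-PAS factors was called. By the adjusted p alone, 3 passed upward and 1 downward, beside 5.72% and 14.1% of all genes. The clock factor NPAS2 was at 0.54 (adjusted p = 0.00810), NPAS4 at 0.51 (0.0491) and BMAL2 at 0.26 (0.0460). ARNT2, the close relative of ARNT, was at -0.34 (adjusted p = 0.0409). Of 11 tested hypoxia target genes, none was called higher, and NDRG1, a stress-induced gene, fell by 0.67 (adjusted p = 0.00756). Its call was lost without evening control replicate 1 or PCA replicate 2. PDK1, which diverts pyruvate from mitochondria, was at -0.41 (adjusted p = 0.0176). None of the 5 tested makers of endogenous AHR ligands was called, and IDO2, a tryptophan-degrading enzyme, was furthest at 0.45 (adjusted p = 0.0594). IDO2 read 4.90 and 4.61 in the evening control, under the minimum signal of 4.91 on the log2 scale. It read 5.39 and 5.03 with the PCA pollutants, and 5.10 and 5.12 in the morning control. After quantile normalization or ribosomal scaling, NCOA2, ABCG2, CYB5A and NDRG1 no longer reached the fold limit.

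**Figure D4:**
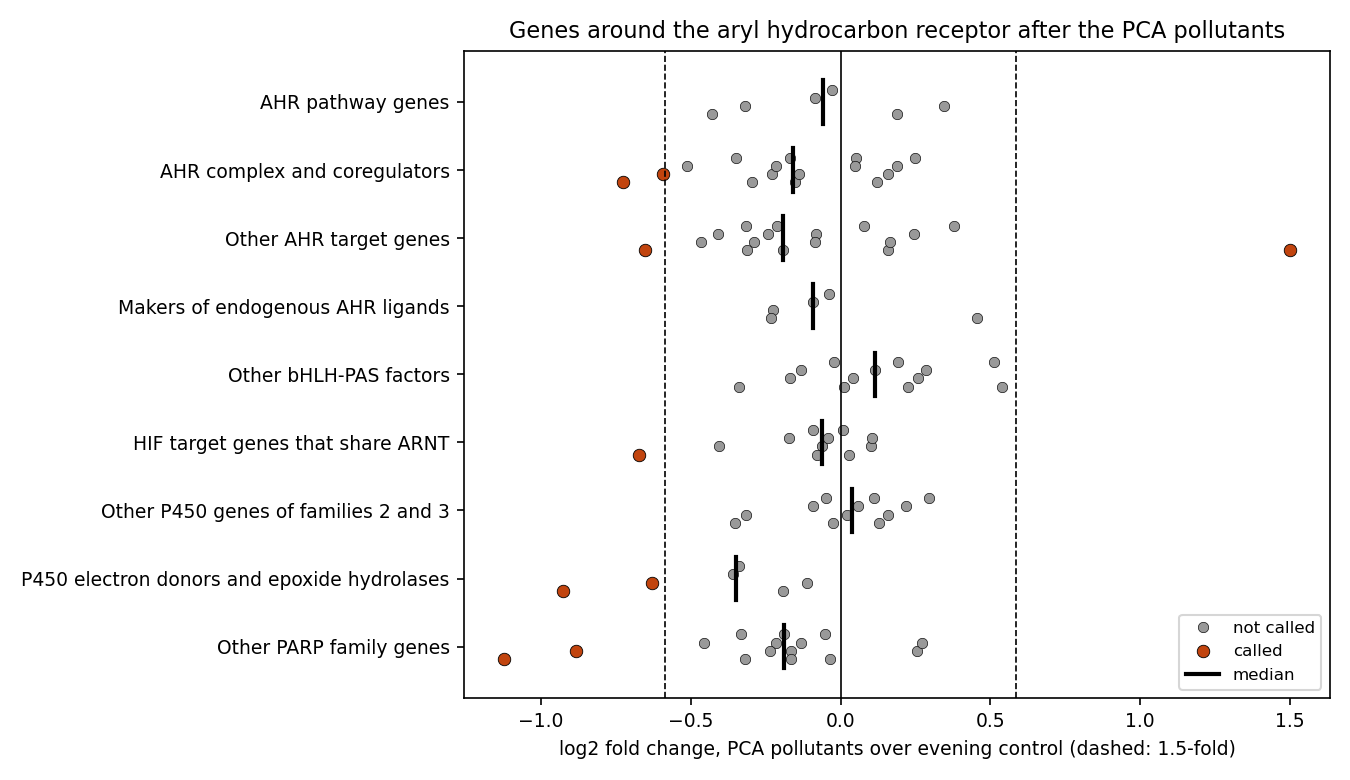
Log2 difference between the PCA pollutants and the evening control (x axis) of each tested gene of the AHR pathway and of the 8 related lists (rows). Points are genes, with called ones in red, vertical bars are list medians, and dashed lines mark 1.5-fold. EREG at 1.501 and PARP9 at -1.12 lie furthest out, and no pathway member crosses a dashed line.

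The genes whose signals ran most alike with each member over the 8 arrays were taken by Pearson's r, as a description in which arrays of a group are not independent of their shared run. For CYP1B1 they were CSTF2T (0.987), SCARNA17 (0.986) and EMP2 (0.984). For TIPARP they were GPATCH4 (0.975), MARS1 (0.971) and FBXO40 (0.970). AHR ran most like LAMB3 (0.978), DDIT4 (0.957) and ATP1B1 (0.940), and ARNT most like SPTBN1 (0.983), TBC1D13 (0.983) and E2F8 (0.982). CYP1A1 ran with ZBTB18 (0.973), CCDC183 (0.953) and OGFOD3 (0.931), and CYP1A2 with CHIA (0.980), ADGRF2P (0.975) and KCNJ6 (0.967). No member was among the 3 genes most like another.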

How the data were processed

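Human Gene 1.0 ST arrays, 8 in number with 2 a group, measured RNA of A549 cells. As deposited, values were on the log2 scale after robust multichip averaging by the authors, and the submitters' processing notes name Partek 6.4. Robust multichip average sets the probe intensities of all arrays to a common distribution, so changes are relative to all genes. Medians of the deposited probe set values still ran from 6.93 to 7.03. Of 28869 probe sets, 19310 carry 1 symbol, 1752 carry several and 7807 have none listed. Each gene was read from its own probe set of highest mean signal, and AHRR was not analysed here.

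In limma 3.58.1 under R 4.3.3, lmFit and eBayes were run on the 4 groups together, which left 4 residual degrees of freedom. Probe sets that reached a signal of 30 on at least 1 array of a comparison were tested. The p-values were adjusted by the Benjamini-Hochberg method over all probe sets tested, unnamed ones included. A gene was called at an adjusted p under 0.05 and at least 1.5-fold. The study used the same fold limit, but its p-values came from an analysis of variance and its false discovery limit was a q-value. With those it reported genes changed by the primary pollutants, so the counts here are not counts by the study's rule. In all, 5 comparisons were made, and the fit was tested on simulated data. The number of arrays limits the precision. Figures used matplotlib 3.10.9 in Python 3.11.15.

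The members, lists and named genes were chosen with earlier results of these data known. Named were all members and the 3 genes most like each member. From each list, the called genes and up to 4 of smallest p in the PCA comparison were named. Alternatives changed the scaling, signal filter, fold limit, probe set rule, prior, test, control group, replicate block and arrays left out.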

Additional observations from a re-analysis of the deposited data

Results flagged for a closer look

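Genes were picked out on either of 2 grounds. In 5 of the 38 genes looked at, both arrays of one response lay on the opposite side of their controls from both arrays of the other, as in 965 of 17311 genes (5.57%) tested with both mixtures. In 2 of the 38 the difference between the responses passed its own test, as in 77 of 17540 genes (0.439%). Besides the members, the 38 were list genes picked for calls or small p-values in the PCA comparison. That comparison is part of the difference, so the counts among the 38 cannot be weighed against the shares of all genes.

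Among the members, AHR was at -0.03 with the PCA pollutants and 0.11 with the primary pollutants on the log2 scale, a difference of -0.14 (interval -0.36 to 0.08, adjusted p = 0.471). CYP1B1 was at -0.43 and 0.10, a difference of -0.53 (adjusted p = 0.102). Neither difference passed the limma test after adjustment.

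In the related lists, EGLN3, an oxygen-sensing prolyl hydroxylase, was at -0.17 with the PCA pollutants and 0.17 with the primary pollutants, a difference of -0.34 (adjusted p = 0.149). POR differed by -0.47 (adjusted p = 0.0861) and EPHX1 by -0.51 (adjusted p = 0.0848), and these 3 did not pass. EREG, with a difference of 1.31 (SE 0.14, interval 0.99 to 1.64, adjusted p = 0.0248), and PARP9, with -0.93 (SE 0.14, interval -1.27 to -0.60, adjusted p = 0.0485), passed the test of the difference itself.

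Both of those calls were fragile. EREG had an adjusted p of 0.0301 without morning control replicate 1, and without any other array it was between 0.0603 and 0.133. PARP9 lost its call without any 1 of the 8 arrays, at 0.0603 to 0.219.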

How the results depend on the processing

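No member was called in any comparison under any alternative that kept the fold limit. With no fold limit, 2 members were called with the PCA pollutants and 1 in the pooled comparison. By the adjusted p alone, the count of 2 with the PCA pollutants became 1 under an analysis of variance with Benjamini-Hochberg adjustment, median centring, only the 4 arrays of the comparison, or the other control group, and 3 under ribosomal scaling, which added CYP1A2, or a trended and robust prior, which added ARNT. It ran from 0 to 2 without 1 array. The pooled count of 1 became 0 under that analysis of variance, median centring or the replicate block, and 2 under ribosomal scaling or the trended prior, with 0 to 1 without 1 array. The count of 0 for the difference between responses became 1 (CYP1B1) at a minimum signal of 100, which leaves CYP1A1 untested, or with the trended prior.

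CYP1B1 kept its direction with the PCA pollutants, from -0.51 to -0.30 with adjusted p-values of 0.00142 to 0.0897, and so did TIPARP, from 0.26 to 0.47 with 0.00441 to 0.155. Signs turned for differences that were not called. In the PCA comparison ribosomal scaling gave 0.0966 for AHR, 0.0409 for CYP1A1 and 0.0336 for AFMID, and quantile normalization gave 0.0664 for AHR. The other control group gave -0.169 for CYP2F1 and -0.0306 for SLC2A1. Leaving out 1 array gave -0.35 to 0.18 for CYP1A1 and -0.523 to 0.0751 for TDO2. Between responses CYP1A1 ran from -0.12 to 0.42 without 1 array. With the primary pollutants, ARNT was at 0.0284 under ribosomal scaling. Between controls, ribosomal scaling gave 0.0666 for CYP1A1, 0.0753 for CYP1A2 and 0.00895 for TIPARP, and median centring gave -0.00725 for AHR. Without 1 array these ran from -0.0232 to 0.0297 for AHR, -0.30 to 0.24 for CYP1A1 and -0.0685 to 0.0233 for CYP1A2. The cause was not tested.

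Labels do not say that numbers pair the arrays, and same-numbered arrays deviated together at r = -0.12 to 0.07. With the replicate block, CYP1B1 had an adjusted p of 0.0174 and TIPARP 0.0475 with the PCA pollutants. Over all probe sets the difference between responses had 117 calls, against 2 with the block, 36 with the primary numbers crossed, and 0 to 9 without 1 array.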
